A study of Mus musculus with 6 samples.

Results

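The genes described here encode the ligands, receptors and co-receptors of vascular endothelial growth factor (VEGF) signalling. They were taken from the deposited expression table by gene symbol, and they are 9 of its 54532 genes: the ligands Vegfa, Vegfb, Vegfc and Pgf, the receptors Kdr, Flt1 and Flt4, and the neuropilins Nrp1 and Nrp2. RNA sequencing was done on primary brain microvascular endothelial cells (BMVECs), grown from brain vessel fragments of wild-type C57BL/6J mice under puromycin selection and then to confluence without it. Processed IL-36β (DEVD mIL-36β), an IL-1 family cytokine, was given at 100 ng/ml for 24 h to the cells of 3 libraries, named A24, D24 and E24, and 3 libraries of untreated cells were named A0, B0 and D0. For the untreated cells the labels give neither a vehicle nor a time, so the cytokine and the time since plating cannot be told apart. Whether the replicate libraries are of different animals or dishes is also not stated. Each p-value sets a difference only against the spread between these libraries.

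VEGF ligands are secreted dimers that bind receptor tyrosine kinases on endothelial cells. VEGF-A is the main signal for vessel growth and permeability; it acts through VEGFR2, encoded by Kdr, while VEGFR1, encoded by Flt1, binds VEGF-A tightly with weak kinase output and is also made as a soluble decoy. VEGF-B and placental growth factor, encoded by Pgf, bind VEGFR1, VEGF-C binds VEGFR3, encoded by Flt4, and the neuropilins present ligands to the receptors and also bind semaphorins. In the brain, VEGF-A comes largely from astrocytes and other cells outside the endothelium, its transcript is raised by low oxygen, and it opens the blood-brain barrier.

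Promoter sequences are given for Vegfa and Nrp2, the members that differed between sets of libraries, and for Kdr and Flt1, the receptors of VEGF-A. Each runs 5′ to 3′ on the gene's own strand, over 300 bases around the start in RefSeq, on build GRCm38.p6, and capitals mark the GC box GGGCGG or its reverse complement CCGCCC. The Vegfa window, the first of 2 in the RefSeq table, is chr17:46032328-46032627 (minus strand), that of Kdr is chr5:75978406-75978705 (minus strand), that of Flt1 is chr5:147725962-147726261 (minus strand) and that of Nrp2 is chr1:62703067-62703366 (plus strand).
Vegfa: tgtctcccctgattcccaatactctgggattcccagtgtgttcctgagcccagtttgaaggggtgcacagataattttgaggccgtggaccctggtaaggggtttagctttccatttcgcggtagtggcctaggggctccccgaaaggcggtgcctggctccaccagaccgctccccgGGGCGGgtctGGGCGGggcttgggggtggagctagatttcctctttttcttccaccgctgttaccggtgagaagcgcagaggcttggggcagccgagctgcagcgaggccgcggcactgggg
Nrp2: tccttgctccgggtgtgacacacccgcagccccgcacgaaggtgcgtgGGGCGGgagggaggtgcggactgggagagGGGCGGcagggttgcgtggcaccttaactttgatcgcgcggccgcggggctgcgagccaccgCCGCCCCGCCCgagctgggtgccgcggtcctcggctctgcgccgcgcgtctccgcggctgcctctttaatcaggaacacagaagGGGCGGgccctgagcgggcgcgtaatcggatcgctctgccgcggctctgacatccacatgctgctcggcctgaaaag
Kdr: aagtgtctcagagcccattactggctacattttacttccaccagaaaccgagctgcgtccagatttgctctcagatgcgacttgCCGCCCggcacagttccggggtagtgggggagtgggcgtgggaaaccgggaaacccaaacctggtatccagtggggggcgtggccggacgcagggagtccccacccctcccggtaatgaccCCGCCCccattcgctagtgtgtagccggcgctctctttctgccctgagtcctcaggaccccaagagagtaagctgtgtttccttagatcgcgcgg
Flt1: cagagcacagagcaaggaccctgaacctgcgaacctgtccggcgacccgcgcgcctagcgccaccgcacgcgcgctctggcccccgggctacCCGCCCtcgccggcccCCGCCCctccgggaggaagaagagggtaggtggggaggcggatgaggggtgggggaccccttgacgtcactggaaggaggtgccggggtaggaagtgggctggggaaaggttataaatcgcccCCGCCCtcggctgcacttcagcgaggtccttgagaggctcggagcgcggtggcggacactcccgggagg
All 9 members had a window in the RefSeq table, and all 9 windows held at least 1 GC box, from 1 in Nrp1 to 5 in Nrp2. Over all 32851 windows of the same length, 35.7% held one. The members' windows were 60.7 to 75.3% G or C, and the GC box holds only these bases. The core of the hypoxia response element, ACGTG on either strand, was in 0 of the 9 windows and in 19.6% of all windows. The ETS core GGAA (TTCC), the motif of the endothelial ETS factors, was in 9 of 9 and in 96.0% of all windows. No GC box in a member's window overlapped a match to either of these motifs. No match says only that these letters are not in this window.

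The ligand genes lie, on GRCm38, at chr17:46016993-46032369 (Vegfa, minus strand), chr19:6982473-6987651 (Vegfb, minus), chr8:54077606-54187096 (Vegfc, plus) and chr12:85166635-85177790 (Pgf, minus). The receptor genes Kdr and Flt1 share a chromosome, at chr5:75932827-75978458 and chr5:147561604-147726011 on the minus strand, and Flt4 is at chr11:49609263-49652739 on the plus strand. The neuropilin genes are on the plus strand, Nrp1 at chr8:128358604-128503363 and Nrp2 at chr1:62703285-62818695. The table holds 1 value per gene over all exons, and GENCODE lists from 2 transcripts (Flt4) to 13 (Vegfa) for a member.

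Levels are given in FPKM, fragments per kilobase of gene scaled for depth, which can be compared between genes because they are per length. Libraries held 15180389 to 19544689 reads in genes, and a member had from 92 reads (Vegfa in D24) to 50564 reads (Pgf in A24) in a library. Markers of endothelium summed to 3091 to 3812 FPKM in IL-36β libraries and 3062 to 3345 FPKM in untreated libraries, with 11 of 11 tested. Astrocyte markers summed to 3.60 to 4.91 FPKM and 3.81 to 5.31 FPKM, with Aqp4 and Slc1a3 at 0 reads in every library. Pericyte and smooth muscle markers summed to 358 to 808 FPKM and 401 to 1361 FPKM. For IL-36β, DESeq2 called endothelial Cldn5 higher (adjusted p = 0.0222) and smooth muscle Myh11 lower (adjusted p = 0.00447), where it called 2.06% of all genes. In limma neither was called (adjusted p = 0.378 and 0.315). The library letters set D and E (IL-36β D24 and E24, untreated D0) beside A and B (IL-36β A24, untreated A0 and B0), and these sets differed in 220 of 12618 genes in limma. That count was 25 without A24, 402 without E24, 45 without A0, 47 without B0 and 17 without D0. The sets were proposed with earlier results of these data known, so tests that use them may overstate the evidence.

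**Figure D1:**
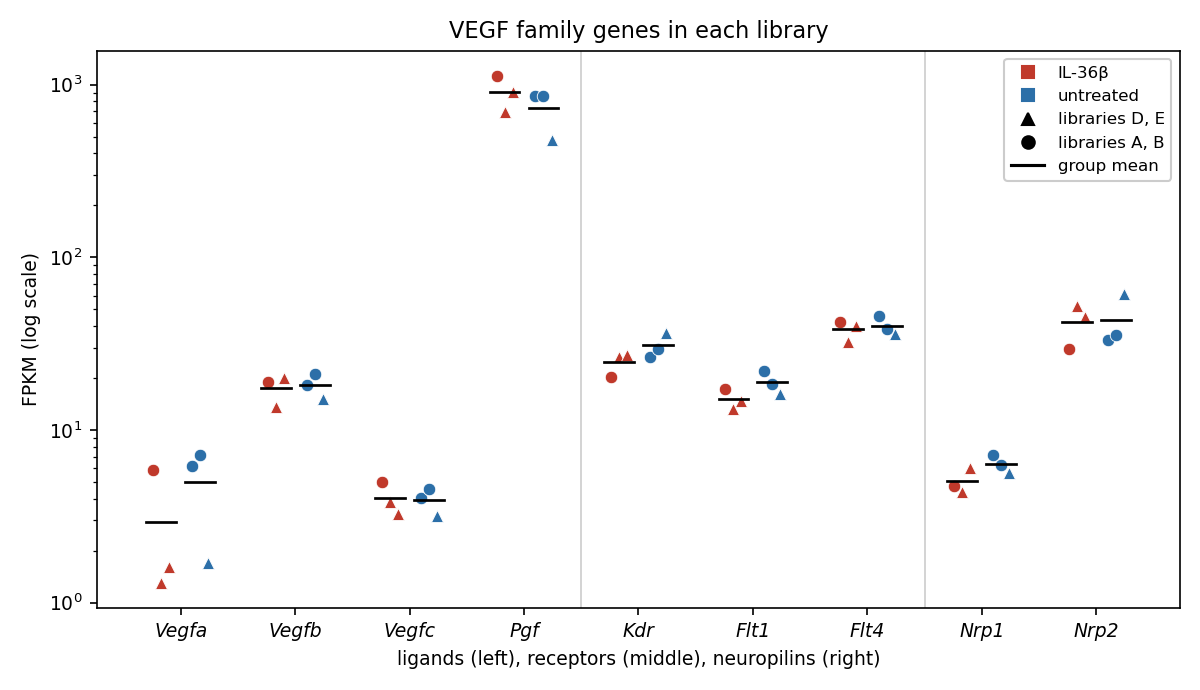
FPKM on a log scale of the 4 ligand, 3 receptor and 2 neuropilin genes in each library, with IL-36β (red) left of untreated (blue), triangles for libraries D and E, circles for A and B, and a bar at the group mean. Pgf stands above all other members in every library, and the Vegfa triangles lie at 1.31 to 1.68 FPKM, under its circles at 5.86 to 7.14 FPKM.

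Placental growth factor was by far the most abundant ligand transcript. Pgf averaged 908 ± 214 FPKM in IL-36β libraries and 732 ± 220 FPKM in untreated libraries (SD, n = 3 each) and ranked 26 among the 12618 genes tested by mean FPKM. It made up 97.3 to 97.4% of the summed FPKM of the 4 ligands in IL-36β libraries and 96.0 to 96.8% in untreated libraries. Next among ligands stood Vegfb at 17.5 ± 3.52 FPKM with IL-36β and 18.1 ± 3.01 FPKM in untreated libraries. Vegfc, the ligand of VEGFR3, was at 4.03 ± 0.883 FPKM and 3.92 ± 0.683 FPKM, and Vegfa at 2.93 ± 2.55 FPKM and 5.00 ± 2.91 FPKM. The ranges of Vegfc and Vegfa overlapped in both groups.

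Among the receptor tyrosine kinases, the VEGFR3 transcript Flt4 was highest, at 38.2 ± 5.23 FPKM in IL-36β libraries and 40.1 ± 5.24 FPKM in untreated libraries (SD, n = 3 each). It held 40.4 to 53.0% of the summed receptor FPKM over the 6 libraries, against 25.5 to 41.3% for Kdr and 18.0 to 23.1% for Flt1. In IL-36β libraries the range of Flt4 lay above that of Kdr, while in untreated libraries Flt4 was above Kdr in 2 of 3 libraries and the ranges overlapped. VEGFR3 marks lymphatic endothelium as well as growing blood vessels. The lymphatic transcription factor Prox1 was at 0.0610 ± 0.0379 FPKM and 0.0718 ± 0.0223 FPKM (57 reads in all libraries together), too low to be tested. Other lymphatic markers were higher, with Lyve1 at 8.72 ± 2.59 FPKM and 6.81 ± 0.420 FPKM. Pdpn was at 2.40 ± 2.13 FPKM and 0.635 ± 0.697 FPKM. Of the neuropilins, Nrp2 took 82.2 to 92.2% of the summed FPKM. It was above Flt4 in 2 of 3 IL-36β libraries and in 1 of 3 untreated libraries, and this order followed the library letters. Nrp2 was above Flt4 in D24, E24 and D0, at 52.1, 45.3 and 61.2 FPKM against 32.3, 40.0 and 35.8 FPKM. In A24, A0 and B0 it was below, at 29.6, 33.3 and 35.7 FPKM against 42.3, 45.9 and 38.6 FPKM.

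The IL-36β libraries were compared with the untreated ones, for which neither a vehicle nor a time is given. All 9 members passed the filter on low values (at least 0.5 FPKM in at least 3 of 6 libraries), and 0 of 9 changed past an adjusted p of 0.05 in limma, where 0.182% of all 12618 genes did. On the recovered reads, edgeR and DESeq2 also called 0 of 9 after adjustment, against 0.293% and 2.06% of all genes. At an unadjusted p under 0.05 the members' count was 0 in limma, 2 in edgeR and 3 in DESeq2, against 10.4%, 11.1% and 10.3% of all genes in these tools. The groups overlapped in all 9 members, against 16.2% of all genes whose groups did not overlap. In bulk RNA, fewer cells of a type and less RNA per cell cannot be told apart.

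Pgf had 1122, 694 and 909 FPKM in IL-36β libraries A24, D24 and E24, against 861, 857 and 478 FPKM in untreated libraries A0, B0 and D0. The highest library was treated and the lowest untreated, and the groups overlapped. The fold of Pgf was 1.26 (95% confidence interval 0.803 to 1.98, as in every bracket after a fold), at a limma adjusted p of 0.695. Folds of single genes here are on the scale of FPKM + 0.5, and folds of ratios between members are of FPKM with nothing added. Within each library set IL-36β was above untreated for Pgf, by 1.66-fold in the D and E set and 1.31-fold in the A and B set. With the set as a model term its fold was 1.47 (1.15 to 1.89), at an unadjusted p of 0.00776 and a limma adjusted p of 0.196.

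Vegfa had 5.86, 1.31 and 1.62 FPKM in A24, D24 and E24, against 6.16, 7.14 and 1.68 FPKM in A0, B0 and D0. Only A24 of the IL-36β group was near 6 FPKM, and only D0 of the untreated group was under 2 FPKM. Through these libraries the groups overlapped over nearly their whole range. The fold of 0.602 had an interval of 0.227 to 1.60 (limma adjusted p = 0.694), the widest of the 9. With the library set as a term the fold was 0.893 (0.728 to 1.10, limma adjusted p = 0.595), and it was 0.895 in the D and E set and 0.892 in the A and B set. Libraries D and E made up 2 of the 3 IL-36β libraries and 1 of the 3 untreated ones. Vegfb had a fold of 0.964 (0.720 to 1.29, limma adjusted p = 0.932) and Vegfc of 1.02 (0.763 to 1.36, limma adjusted p = 0.968). The direction of both was not stable: it turned in Vegfb with the library set as a term and in Vegfc with TPM scaling.

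Kdr, the main signalling receptor, had 20.3, 26.3 and 27.3 FPKM in A24, D24 and E24, against 26.6, 29.3 and 36.6 FPKM in A0, B0 and D0. Only E24, at 27.3 FPKM, was above the lowest untreated library, A0. The fold was 0.802 (0.622 to 1.04, limma adjusted p = 0.539). Within each set it was almost the same, 0.736 in the D and E set and 0.731 in the A and B set, and between libraries of one letter it was 0.767 for A24 over A0 and 0.723 for D24 over D0. These folds share libraries, since A24 is the only treated library of A and B and D0 the only untreated library of D and E. With the library set as a term the fold was 0.734 (0.637 to 0.845), at an unadjusted p of 0.00136 and a limma adjusted p of 0.0967, so the difference did not pass the threshold over all genes. That was the smallest p of the 9 members in that fit.

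Flt1, the decoy receptor, had 17.2, 13.2 and 14.8 FPKM in A24, D24 and E24, against 21.8, 18.5 and 16.2 FPKM in A0, B0 and D0. A24 was above D0, and the other IL-36β libraries were below every untreated one. The fold was 0.805 (0.640 to 1.01, limma adjusted p = 0.504) and 0.863 (0.727 to 1.02, limma adjusted p = 0.421) with the set as a term. The table merges the transcripts of a gene, so the membrane and soluble forms of Flt1 are not separated. Flt4 had 42.3, 32.3 and 40.0 FPKM in A24, D24 and E24, against 45.9, 38.6 and 35.8 FPKM in A0, B0 and D0. Its fold was 0.953 (0.762 to 1.19, limma adjusted p = 0.877) and 1.01 (0.824 to 1.23, limma adjusted p = 0.982) with the set as a term, where its direction turned.

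Nrp1, the co-receptor of VEGF-A and semaphorin 3A, had 4.72, 4.39 and 5.98 FPKM in A24, D24 and E24, against 7.19, 6.28 and 5.60 FPKM in A0, B0 and D0. Its groups overlapped only through E24 and D0, and its fold was 0.804 (0.637 to 1.01, limma adjusted p = 0.509). Nrp2, the co-receptor of VEGF-C and semaphorin 3F, had 29.6, 52.1 and 45.3 FPKM in A24, D24 and E24, against 33.3, 35.7 and 61.2 FPKM in A0, B0 and D0. Its groups covered the same range, with a fold of 0.987 (0.627 to 1.55, limma adjusted p = 0.988). Its log2 fold change turned to 0.22 without A24 and 0.25 without D0. With the set as a term the fold was 0.828 (0.706 to 0.970, limma adjusted p = 0.299), and the interval lay below 1.

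With the library set as a term, 0 of 9 members passed the adjusted threshold, which 0.808% of all genes did, and 3 of 9 had an unadjusted p under 0.05, against 13.6% of all genes. These were Kdr and Nrp2 at lower fitted levels and Pgf at a higher one with IL-36β. In the libraries that share a letter, A24 and D24 were below A0 and D0 in 6 of 9 members, against 29.2% of all genes: Vegfa, all 3 receptors and both neuropilins. Vegfc and Pgf were above in both of these pairs, against 28.3% of all genes. These counts are descriptions of 2 pairs of libraries, and the labels do not say what a letter stands for.

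**Figure D2:**
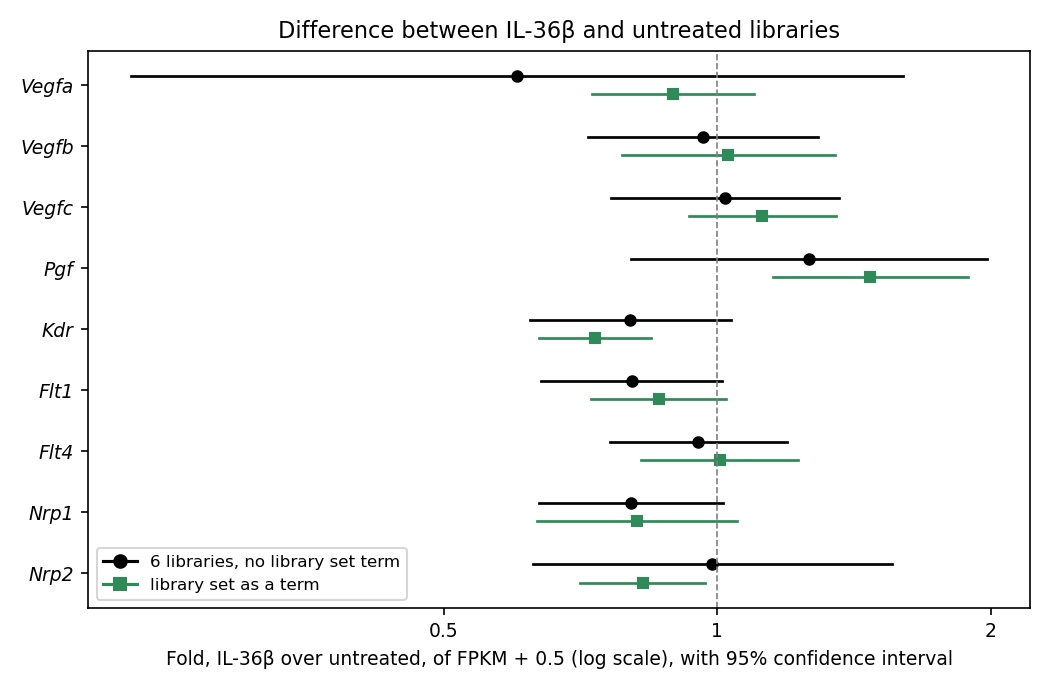
Fold of IL-36β over untreated for each member, of FPKM + 0.5 on a log axis, with 95% confidence intervals from 3 libraries a group; black circles leave the library set out and green squares have it as a term. Every black interval includes 1, and the green intervals of Pgf (1.15 to 1.89), Kdr (0.637 to 0.845) and Nrp2 (0.706 to 0.970) do not.

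Ratios of members within a library do not depend on how that library was scaled, and 7 were tested with exact two-sided permutation tests over the 3 and 3 libraries, which cannot give a p under 0.1. None reached that value. The ratio of Flt1 to Kdr, decoy to signalling receptor, was 0.845, 0.502 and 0.541 in A24, D24 and E24, against 0.820, 0.631 and 0.442 in A0, B0 and D0. The groups covered the same range, with a mean log2 difference of 0.00 (exact permutation p = 1). The ratio of Pgf to Vegfa was 191, 531 and 562 in A24, D24 and E24, against 140, 120 and 284 in A0, B0 and D0. It was 2.29-fold higher on the mean log2 scale with IL-36β (exact permutation p = 0.2, adjusted over 7 ratios 0.467), and the groups overlapped. By library letter, it was higher in each of D24, E24 and D0 than in any of A24, A0 and B0. The ratios of Vegfa to Vegfc, Vegfa to Vegfb, Nrp1 to Nrp2, Kdr to Flt4 and Vegfa to Kdr had folds of 0.539, 0.572, 0.798, 0.839 and 0.689, with adjusted values from 0.467 to 1. For Vegfa to Kdr the mean log2 difference of -0.54 became -1.34 without A24, -1.33 without D0 and -0.071 without D24, and for Vegfa to Vegfb that of -0.81 became -1.41 without A24.

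Against the library letters, Vegfa and Nrp2 differed. Vegfa was lower in every library of D and E, at 1.54 ± 0.202 FPKM, against 6.39 ± 0.668 FPKM in A and B (SD, n = 3 each). The fold of D and E over A and B was 0.307 (0.250 to 0.376) in a model with the treatment (limma adjusted p = 0.00259). It was alike with and without the cytokine, at 0.307 among IL-36β libraries and 0.306 among untreated ones. The first of these rests on A24 alone for A and B, and the second on D0 alone for D and E. In reads, D24, E24 and D0 had 92, 126 and 111 from Vegfa, against 390, 429 and 620 in A24, A0 and B0, so every D or E library had fewer than every A or B library.

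Nrp2 went the other way, at 52.9 ± 7.95 FPKM in D and E and 32.8 ± 3.06 FPKM in A and B (SD, n = 3 each). Its fold was 1.70 (1.45 to 1.99, limma adjusted p = 0.0163), with 1.63 among IL-36β libraries and 1.76 among untreated ones. In all, 2 of 9 members were called between the sets, where 1.74% of all genes were. Leaving out 1 library ended calls: for Vegfa the limma adjusted p was 0.0663 without A24 and 0.0643 without D0, and for Nrp2 it was 0.170 without A24, 0.0680 without A0, 0.0871 without B0 and 0.252 without D0. The fitted differences moved little in these fits, from -1.75 to -1.66 log2 for Vegfa and from 0.71 to 0.82 log2 for Nrp2.

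The sets did not overlap in 4 of 9 members, against 19.7% of all genes: Nrp2 was higher in D and E, and Vegfa, Vegfc and Flt1 were lower. Vegfc had 3.19 to 3.80 FPKM in D and E, against 4.05 to 5.00 FPKM in A and B, a fold of 0.751 that was not called (limma adjusted p = 0.145). Flt1 had 13.2 to 16.2 FPKM in D and E, against 17.2 to 21.8 FPKM in A and B (fold 0.814, limma adjusted p = 0.237). Kdr had a fold of 1.31 (1.13 to 1.51, limma adjusted p = 0.0884), and Pgf of 0.628 (0.490 to 0.803, limma adjusted p = 0.0887). On the recovered reads edgeR called Pgf lower in D and E (adjusted p = 0.0268), beside Vegfa and Nrp2, so 3 of 9 members against 3.69% of all genes. The ratio of Flt1 to Kdr lay at 0.442 to 0.541 in D and E and at 0.631 to 0.845 in A and B, and that of Vegfa to Vegfc at 0.344 to 0.529 and 1.17 to 1.57. Pgf to Vegfa lay at 284 to 562 and 120 to 191, and Vegfa to Vegfb at 0.0807 to 0.112 and 0.309 to 0.340. Vegfa to Kdr lay at 0.0461 to 0.0593 and 0.232 to 0.289, and Nrp1 to Nrp2 at 0.0843 to 0.132 and 0.159 to 0.216. Only in Kdr to Flt4 did the sets overlap, at 0.681 to 1.02 and 0.480 to 0.761.

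**Figure D3:**
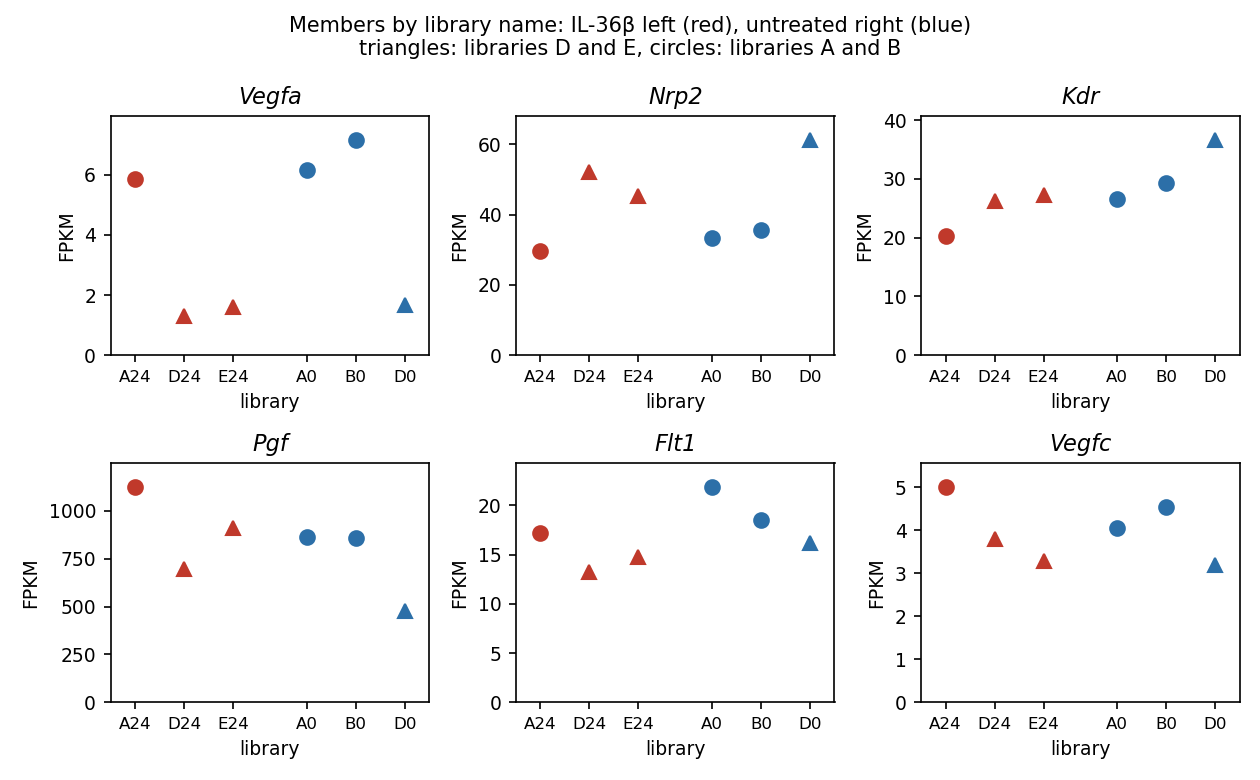
FPKM from 0 of 6 members in each library, with IL-36β libraries (red) left and untreated libraries (blue) right, triangles for D and E and circles for A and B. The D and E libraries lie below all A and B libraries in Vegfa, Flt1 and Vegfc and above them in Nrp2, in both treatment groups.

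Markers of other cells also differed between these sets. Pericyte and smooth muscle markers summed to 527 to 1361 FPKM in D and E and 358 to 707 FPKM in A and B, most of it the smooth muscle actin transcript Acta2, with 7 of 10 tested and Tagln called higher in D and E (2.46-fold, limma adjusted p = 0.0168). Of those 7, 2 had a fitted difference below 0, Myh11 (fold 0.680, limma adjusted p = 0.393) and Notch3 (fold 0.835, limma adjusted p = 0.645). The neuronal list summed to 13.7 to 24.3 FPKM and 6.80 to 6.91 FPKM, nearly all of it Tubb3, which was called higher (2.62-fold, limma adjusted p = 0.0168), with Snap25 at 0 reads. Map2, of the same list and too low to be tested, lay the other way, at 0.0370, 0.0435 and 0.150 FPKM in D24, E24 and D0, against 0.333, 1.20 and 1.69 FPKM in A24, A0 and B0. The lymphatic list called Pdpn higher (4.31-fold, limma adjusted p = 0.0379), and its sums of 43.1 to 54.4 FPKM and 45.2 to 53.5 FPKM are mostly Flt4. Fibroblast markers summed to 1.54 to 3.56 FPKM and 0.724 to 0.951 FPKM, and markers of microglia to 7.23 to 9.43 FPKM and 6.87 to 7.43 FPKM. The collagen genes Col1a1, Col1a2 and Col3a1 averaged higher in D and E, and of the fibroblast list only Col1a2 was tested (limma adjusted p = 0.0887). Pdgfra and Dcn averaged lower, Dcn only through A24, at 0.497 FPKM. The microglial sum was mostly Cd68, at 7.95 ± 1.25 FPKM and 6.84 ± 0.294 FPKM, the only gene of that list tested. Oligodendrocyte and epithelial markers were under 0.5 FPKM in sum in every library. Endothelial markers summed to 3062 to 3812 FPKM in D and E and 3074 to 3345 FPKM in A and B. Of these 11 markers 0 were called, and 8 had a fitted difference below 0. Vwf (fold 0.760, limma adjusted p = 0.214) and Egfl7 (fold 0.775, limma adjusted p = 0.309) were among the 8, while Tek was higher in D and E (fold 1.26, limma adjusted p = 0.279). The part of any of these in the Vegfa and Nrp2 differences was not tested.

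The genes around these members were read from 8 lists with 106 genes in the table, of which 98 were tested. Neither limma nor edgeR called any of them for IL-36β, and 11 were higher and 7 lower at an unadjusted limma p under 0.05, which 10.4% of all genes had. DESeq2 called 6 of 98, against 2.06% of all genes; 5 of these, all but Thbs1, are named because of their values. Ptprb, which encodes the phosphatase VE-PTP, had 16.7, 20.0 and 19.9 FPKM in A24, D24 and E24, against 30.9, 28.9 and 29.1 FPKM in A0, B0 and D0. Its groups did not overlap, its fold was 0.641 (limma adjusted p = 0.0904), and with the library set as a term it fell to 0.626-fold (limma adjusted p = 0.0414). It was the 1 list gene of 98 called in that fit, against 0.808% of all genes. The other genes DESeq2 called were Ptprj, a receptor phosphatase, and Thbs1 at lower levels, and Spry4, an inhibitor of receptor kinase signalling, and the transcription factors Hlx and Sox7 at higher ones, with limma adjusted p values from 0.131 to 0.308.

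Regulators of VEGF receptor activity had a median log2 fold change of -0.17 with 8 of 14 below 0, against a median of 0.00 and 49.5% below 0 over all genes. Thbs1, an inhibitor of vessel growth and the most abundant of them, was at 1033 ± 88.0 FPKM with IL-36β and 1433 ± 37.0 FPKM in untreated libraries (fold 0.720, limma adjusted p = 0.302), and Cav1, the caveolar coat protein, at 985 ± 141 FPKM and 1218 ± 69.4 FPKM (fold 0.804, limma adjusted p = 0.533). Partners of neuropilins had a median of -0.24 with 8 of 12 below 0, while their most abundant genes were above 1: Plxnd1, a semaphorin receptor, had a fold of 1.45 (limma adjusted p = 0.549) and Gipc1, an adaptor that binds Nrp1, of 1.10 (limma adjusted p = 0.765). Genes known to be induced by VEGF in cultured endothelium had a median of 0.24 with 4 of 12 below 0. Angpt2, the ligand that antagonises TIE2 in most settings, was at 1273 ± 220 FPKM and 937 ± 125 FPKM (fold 1.35, limma adjusted p = 0.456), and Apln, a peptide of tip cells, at 1559 ± 170 FPKM and 1385 ± 137 FPKM (fold 1.13, limma adjusted p = 0.728). Transcription factors of endothelial receptor genes had a median of 0.27 with 2 of 11 below 0. Erg, an ETS factor, had a fold of 1.17 (limma adjusted p = 0.576) and Sox18 of 1.33 (limma adjusted p = 0.655). Signal transduction genes had a median of 0.01 with 13 of 29 below 0, with folds of 1.07 for the stress protein gene Hspb1 (limma adjusted p = 0.892) and 1.01 for the small GTPase gene Cdc42 (limma adjusted p = 0.968). Ligand processing had 2 tested genes, Ccbe1, a cofactor of VEGF-C cleavage, at a fold of 0.954 (limma adjusted p = 0.857), and the protease gene Adamts14 at 1.11 (limma adjusted p = 0.822).

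Between the library sets, a count added after the data were seen, 9 of the 98 list genes were lower in D and E and 0 higher, against 1.24% lower and 0.507% higher of all genes. Both the lists and the sets were chosen with earlier results of these data known, so the excess over all genes may be overstated. The count was 4 without A24, 5 without B0 and 3 without D0, and edgeR called 13 lower and 5 higher. Bnip3, Ankrd37 and Egln3 were called without any 1 of the 6 libraries. Of the 9, 6 were hypoxia targets, 2 were oxygen sensors and 1 was Sphk1, a sphingosine kinase (fold 0.556, limma adjusted p = 0.0204). All 10 hypoxia targets had a fitted difference below 0, with a median log2 difference of -1.06, against 0.01 over all genes. In Ndrg1 (log2 difference -0.11, limma adjusted p = 0.729) and Car9 (-0.026, limma adjusted p = 0.959) it was near 0, and the sets overlapped. The 6 called, chosen after their values were seen, were Bnip3 (fold 0.223, limma adjusted p = 0.00152), Ankrd37, Pdk1, Ldha, P4ha1 and Slc2a1 (fold 0.571, limma adjusted p = 0.0131), which encode a mitophagy receptor, an ankyrin repeat protein, a pyruvate dehydrogenase kinase, lactate dehydrogenase A, a collagen prolyl hydroxylase subunit and the glucose transporter GLUT1. Bnip3 had 11.2, 8.81 and 12.3 FPKM in D24, E24 and D0, against 50.5, 52.9 and 52.3 FPKM in A24, A0 and B0. Every D and E value was far below every A and B value, as in Vegfa. The most abundant targets, Adm, the peptide adrenomedullin, and Pgk1, a glycolytic kinase, had folds of 0.701 (limma adjusted p = 0.0913) and 0.603 (limma adjusted p = 0.0541).

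The 8 oxygen-sensing genes had a median log2 difference between the library sets of -0.002, with 4 of 8 below 0. Among them, Egln3, a prolyl hydroxylase that is itself raised by low oxygen, had 7.47, 8.08 and 4.45 FPKM in D24, E24 and D0, against 40.7, 32.4 and 32.6 FPKM in A24, A0 and B0. Its fold was 0.173 (0.143 to 0.210, limma adjusted p = 0.000703), and its relative Egln1 had a fold of 0.687 (limma adjusted p = 0.0427). Hif1a and Epas1, which encode the oxygen-regulated subunits of the hypoxia-inducible factors and are controlled mainly as proteins, had folds of 0.990 (limma adjusted p = 0.969) and 1.24 (limma adjusted p = 0.200). Between IL-36β and untreated libraries the hypoxia targets had a median log2 fold change of -0.44 with 8 of 10 below 0, and -0.06 with the library set as a term. For Hif1a and Epas1 those folds, without the set, were 1.09 (limma adjusted p = 0.723) and 0.913 (limma adjusted p = 0.780). The part of these genes' differences in that of Vegfa was not tested.

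**Figure D4:**
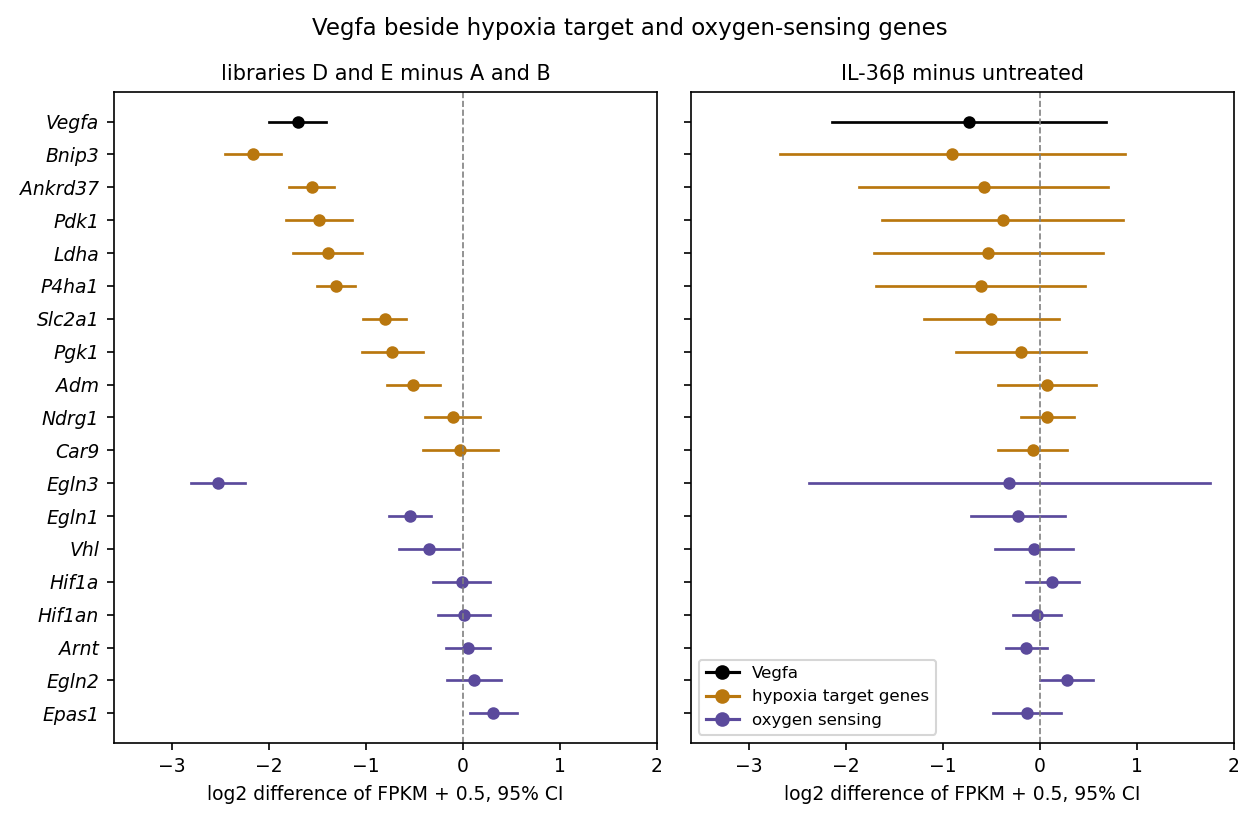
Log2 differences of FPKM + 0.5 with 95% confidence intervals for Vegfa (black), 10 hypoxia targets (orange) and 8 oxygen-sensing genes (purple), on the left for libraries D and E minus A and B and on the right for IL-36β minus untreated. On the left Vegfa lies at -1.71 among Bnip3, Ankrd37, Pdk1 and Ldha, and on the right all those intervals are wide and include 0.

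The genes most like Vegfa over the 6 libraries, among 4442 genes with a mean of at least 10 FPKM, were Pgam1, which encodes a glycolytic phosphoglycerate mutase (Pearson r = 0.996), and P4ha1 (Pearson r = 0.995). Pgam1 had 261, 117 and 128 FPKM in A24, D24 and E24, against 252, 259 and 129 FPKM in A0, B0 and D0, so as in Vegfa every D and E library was below every A and B library. For Kdr they were Atp2a2, the calcium pump SERCA2 (Pearson r = 0.991), and Flnc, filamin C (Pearson r = 0.989), and for Flt1 they were Syap1 (Pearson r = 0.983) and Pde8a, a cyclic AMP phosphodiesterase (Pearson r = 0.958). These values describe 6 points that share the libraries, their scaling and the library sets, and they carry no test.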

How the data were processed

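Libraries of mRNA from a stranded Illumina kit were sequenced on a NextSeq, per the labels' protocols. Build GRCm38 and the tools DESeq2 1.38.3, featureCounts 1.50-p3, HISAT2 2.05, fastp and StringTie are listed without roles, per the submitters' processing notes. Whether counting used the strand is not stated. An FPKM table of 54532 genes was deposited by the authors, scaled by a size factor per library as the recovered reads below show, and, for 660 genes that include 0 of the members, counts and normalized counts (a signal scale, per the file headers). Their 8 columns of 4 libraries that match no sample were not used. FPKM times gene length over 1 divisor per library gave whole reads (100% of values within 0.01), equal to the deposited counts in all 660 genes. At 1 kb, 1 FPKM is 15.4 to 20.3 reads. Replicates differed by more than counting error (11.0 to 40.5 in chi-square over its degrees of freedom).

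Member coordinates in the file equal those of GENCODE M21 on GRCm38, and Nrp1 alone shares exonic bases with another gene (Mir1903, 0.818%).

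FPKM are not counts, so a trended-prior fit in limma 3.58.1 under R 4.3.3 was run on log2(FPKM + 0.5) for 12618 genes with at least 0.5 FPKM in 3 of 6 libraries. Tests were two-sided, Benjamini-Hochberg adjusted over those genes, with a threshold of 0.05. Fold changes on this scale understate the change of low genes. The library sets were compared with treatment in the model. Within-set and letter-pair folds compare mean log2 values and were not tested. Each within-set fold, and each fold between sets within a treatment group, has a single library, A24 or D0, on the smaller side. edgeR 4.0.16 and DESeq2 1.42.0 were run on the recovered reads. The fits were tested on simulated data. Ratios used scipy 1.17.1. List genes were named if called, otherwise the 2 most abundant tested per list; any other list gene was picked by its values. The list symbol Ca9 was matched to Car9 through RefSeq synonyms. The members, lists and library sets were chosen with earlier results of these data known. Alternatives were other pseudocounts, filters and scalings, blocks by title number and library letter, the library set as a term and leaving out each library; leave-one-out and 0.5 added to ratios, and the count of list genes between library sets with its alternatives, were chosen after seeing the data.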

Additional observations from a re-analysis of the deposited data

How the results depend on the processing

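No member was called between IL-36β and untreated cells under any alternative or without any library. The count of all genes called, 23, was 0 with no filter on low values (limma; 1751 at an unadjusted p under 0.05, and 37 in edgeR and 260 in DESeq2 with the filter), 15 with TPM scaling, 102 with the library set as a term and 2 to 8 without 1 library. The replicate block by title number gave 13 calls and that by library letter 78. Deviations of libraries that share a title number correlated at 0.23 (A24 and A0), -0.16 (D24 and B0) and 0.23 (E24 and D0). A24 correlated better with B0 than with A0, and the letter pairs A and D correlated at 0.23 and 0.32. Of all these pairs only D24 and B0 are in different library sets, so these values cannot show whether the numbers or the letters pair the samples. The count of list genes called, 0, was 1 with the set as a term and 6 in DESeq2. Between the sets, 220 genes became 465 in edgeR and 17 to 402 without 1 library, 2 members became 0 to 3, and 9 list genes became 18 in edgeR and 3 to 13 without 1 library.

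Directions turned for Vegfc with TPM scaling (log2 -0.053), and with the set as a term for Vegfb (0.041) and Flt4 (0.0082); the cause was not tested. Without 1 library the log2 fold change ranged from -0.12 to 0.15 for Vegfc (turned without A24 or D0), -0.17 to 0.12 for Vegfb (D24 or B0), -0.15 to 0.046 for Flt4 (D24 or A0) and -0.19 to 0.25 for Nrp2 (A24 or D0). That of the Flt1 to Kdr ratio ranged from -0.23 to 0.21 (A24 or D0), and the set difference of Nrp1 from -0.24 to 0.11 (D0). Of 153 member values under alternatives for IL-36β, 142 kept direction and call. TPM scaling moved the median of all genes to -0.08. Depth limits Vegfa most, at 92 to 126 reads in D and E.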
